A study of Mus musculus with 4 samples.

Results

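Lysosomes are the acidic compartments in which cells break down proteins, glycans and lipids, and the 36 genes described here encode their soluble enzymes, their membrane proteins and the machinery that acidifies them. The members were taken by symbol from a fixed list, all 36 were found among the 55450 genes of the count tables, and the list holds no measured value. The members were, however, chosen with earlier results of these data known. They comprise 10 soluble proteases (Ctsa, Ctsb, Ctsc, Ctsd, Ctsh, Ctsl, Ctss, Ctsz, Lgmn, Tpp1), 5 glycosidases (Hexa, Gla, Gusb, Man2b1, Neu1), 6 genes of lipid handling (Lipa, Npc1, Npc2, Psap, Asah1, Ppt1), 7 membrane proteins (Lamp1, Lamp2, Scarb2, Cd63, Cd68, Laptm5, Mcoln1), 6 genes of the proton pump (Tcirg1, Atp6v0d2, Atp6v0c, Atp6v1a, Atp6v1h, Atp6ap1), the progranulin gene Grn and the transcription factor gene Tfeb.

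The study sequenced single cells of mouse intestine, which the series' design text calls colon, and of brain, with 1 untreated library and 1 library labelled NPs for each tissue. All animals are labelled wild type (WT), and the NPs treatment, whose abbreviation the labels do not spell out, lasted 1 week for the intestinal and 2 months for the brain library. The labels name BALB/c mice at an age of 5 weeks and ICR mice at an age of 6 months as tissue sources without saying which strain gave which tissue, nor how many animals went into a library. Per the labels' protocols, tissue was dissociated with enzymes, and erythrocytes and dead cells were taken out before loading. With 1 library a group there was no replicate, so no test was possible, treatment cannot be told apart from any other difference between libraries, and intervals cover counting error only.

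The deposited tables held 63889853 to 127772838 UMIs (unique molecular identifiers, each counting 1 captured RNA molecule) per library, and 10556 to 16855 cells per library passed the filters. Pairs of libraries shared 35 to 104 cell barcodes, at most 0.605% of either library. The intestinal libraries stood apart from each other: 16.7% of untreated and 46.5% of NPs barcodes held more than 20% mitochondrial UMIs, and posterior Hox genes, which mark the hind gut, gave 77.2% of the Hox UMIs of untreated and 9.80% of those of NPs cells. Gut position and treatment therefore cannot be told apart in the intestine.

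Macrophages take up particles, microbes and dying cells and deliver them to lysosomes, and microglia are the resident macrophages of the brain. Cathepsins, named Cts with a letter, are the main lysosomal proteases, the V-ATPase pumps protons into the lumen, and the LAMP proteins line the membrane. The transcription factor TFEB induces many lysosomal genes through a palindromic DNA element known as CLEAR, whose core is an E-box.

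The CLEAR core was read from RefSeq promoters (GRCm38.p6, 250 bases before to 50 after each gene's start), which were found for 30 of the 36 members with 39 promoters in all; Asah1, Atp6v1h, Atp6v0d2, Npc1, Ctsh and Ctsb had no entry. The palindrome TCACGTGA, which reads the same on both strands, was present in 5 of the 39 promoters, those of Atp6v1a, Ctsa, Ctsd, Gla and Mcoln1, against 0.974% of all 32851 promoters. The shorter CACGTG, contained in it, occurred in promoters of 8 of the 30 members against 8.09% of all genes. The full CLEAR element of 10 bases was present in 0 of the 39 promoters, against 0.326% of all promoters. A motif of the transcription factor PU.1, also read, occurred in promoters of 4 of the 30 members against 3.69% of all genes. The 250 bases before the start are printed for 4 of the promoters with the palindrome in capitals, because Gla and Atp6v1a were higher in both libraries in the sub-cluster like disease-associated microglia, Ctsd was the most abundant member and Mcoln1 is the calcium channel gene followed through all classes. Of the 10 members with a promoter that were higher there in both libraries 2 held the palindrome, and of the other 20 members 3 did. A match describes the letters of the window and is not evidence of binding.
Gla (chrX:134601006-134601255, minus strand): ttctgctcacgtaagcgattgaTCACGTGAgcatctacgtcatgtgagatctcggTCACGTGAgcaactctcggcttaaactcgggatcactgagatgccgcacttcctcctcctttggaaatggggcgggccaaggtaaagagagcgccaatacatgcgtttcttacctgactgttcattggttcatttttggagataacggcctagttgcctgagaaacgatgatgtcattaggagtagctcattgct
Atp6v1a (chr16:44139260-44139509, minus strand): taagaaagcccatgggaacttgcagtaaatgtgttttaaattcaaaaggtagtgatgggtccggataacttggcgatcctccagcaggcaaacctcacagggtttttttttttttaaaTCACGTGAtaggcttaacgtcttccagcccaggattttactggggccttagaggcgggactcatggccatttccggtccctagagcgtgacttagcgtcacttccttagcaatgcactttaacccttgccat
Ctsd (chr7:142387828-142388077, minus strand): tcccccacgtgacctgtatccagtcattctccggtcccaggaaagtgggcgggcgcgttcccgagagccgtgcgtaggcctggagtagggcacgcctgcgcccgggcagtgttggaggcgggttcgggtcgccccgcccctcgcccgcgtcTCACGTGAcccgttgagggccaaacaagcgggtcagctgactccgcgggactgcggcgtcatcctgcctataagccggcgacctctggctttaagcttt
Mcoln1 (chr8:3500269-3500518, plus strand): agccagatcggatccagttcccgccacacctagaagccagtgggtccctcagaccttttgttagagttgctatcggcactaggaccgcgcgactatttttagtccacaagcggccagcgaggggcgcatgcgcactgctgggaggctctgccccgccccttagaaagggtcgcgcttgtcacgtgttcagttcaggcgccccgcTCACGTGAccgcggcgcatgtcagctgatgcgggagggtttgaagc
The Gla window held the palindrome 2 times, at bases -228 to -221 and -195 to -188 from the start, and each of the others held it 1 time before the start, at -132 in Atp6v1a, -99 in Ctsd and -46 in Mcoln1.

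Macrophages and microglia carried the highest share of lysosomal UMIs in each library. The members gave 1.80% (95% exact interval 1.70 to 1.90) of the UMIs of untreated and 2.18% (2.16 to 2.21) of those of NPs intestinal macrophages, against 0.350% and 0.343% in all other cells of those libraries. The interval of the 14 untreated macrophages overlapped that of 20 plasmacytoid dendritic cells (1.67%, 1.59 to 1.74). In microglia they gave 3.31% (3.31 to 3.32) untreated and 3.54% (3.53 to 3.54) with NPs, against 0.738% and 0.739% in all other brain cells. Border-associated macrophages, which line the vessels and meninges, came second in the brain at 2.25% and 2.01%, ahead of monocytes or dendritic cells at 1.64% and 1.54%.

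**Figure D1:**
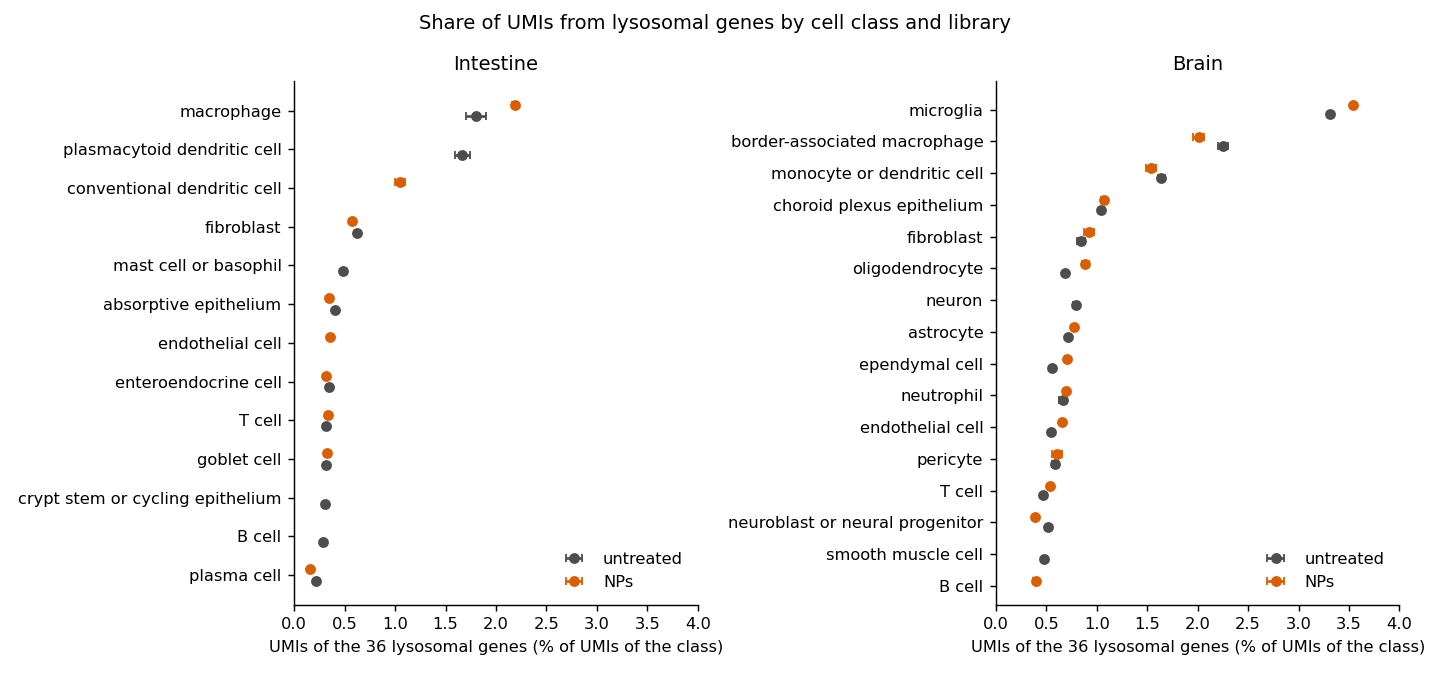
Share of all UMIs of a cell class that came from the 36 lysosomal genes (x axis, percent) for each class (y axis), with untreated libraries in grey and NPs libraries in orange and bars for the 95% exact interval. Macrophages (1.80% and 2.18%) and microglia (3.31% and 3.54%) lie at the top of their tissues in both libraries.

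Cell classes were named by likeness to marker genes that contained no member. The 9 macrophage markers, which include the complement genes C1qa, C1qb and C1qc and the receptor Csf1r, summed to 10333 CPM (CPM being the UMIs of a gene over all UMIs of the class and library, scaled to 1e6) in the 14 untreated and 17065 CPM in the 319 NPs intestinal macrophages, all 9 being detected in both. The 8 T cell markers summed there to 28.0 and 18.2 CPM and the 8 B cell markers to 238 and 79.4 CPM. In the 5321 untreated and 6549 NPs microglia the 10 microglial markers summed to 27669 and 27670 CPM.

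Against all other cells of the same library, 21 of 35 measured members were at least 2-fold higher in untreated microglia and 23 of 35 in NPs microglia, where 15.6% and 15.4% of all genes measured were. At least 2-fold lower were 2 and 1 members, against 41% and 37.9% of all genes. In intestinal macrophages 15 of 20 measured members were at least 2-fold higher untreated (3.51% of all genes) and 30 of 35 with NPs (10.9%). The 2-fold lower calls were 2 of 20 and 0 of 35, with 32% and 31.9% over all genes. Over the whole macrophage or monocyte class of the first clustering, 20 of 31 members were at least 2-fold higher untreated (7.91%) and 30 of 35 with NPs (11.3%). A gene counted as measured with at least 20 UMIs in the higher side.

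The order of the members differed between the macrophage types. In microglia the 5 most abundant, Ctsd, Ctss, Lgmn, Laptm5 and Psap, were the same in both libraries and gave 59.4% and 58.7% of all member UMIs. Intestinal macrophages shared 4 of their leading 5 between libraries, Ctss, Psap, Ctsb and Npc2, with Ctsc as the other untreated and Ctsz with NPs. Each UMI counts 1 molecule whatever its length, so these levels can be ranked between genes, apart from differences in capture.

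Among the proteases, Ctsd (cathepsin D, an aspartic protease) was the most abundant member in microglia and far lower in intestinal macrophages. In the annotation Ctsd and Ctss each overlap another gene on the same strand, so their counts carry that uncertainty. Its level was 6841 CPM in untreated and 7496 CPM in NPs microglia, and 196 and 574 CPM in intestinal macrophages. Ctss (cathepsin S, which trims the invariant chain for antigen presentation) was high in both, with 5224 and 5594 CPM in microglia and 3584 and 2629 CPM in intestinal macrophages. It was 23.4-fold and 17.1-fold above the other brain cells, and 14.7-fold and 25.6-fold above the other intestinal cells. Lgmn (legumain, the asparaginyl endopeptidase) reached 3273 and 3179 CPM in microglia and 798 and 1107 CPM in intestinal macrophages, 51.2-fold and 41.3-fold above the other intestinal cells.

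Ctsb and Ctsc were highest in border-associated macrophages of the brain. Ctsb, a cysteine protease, stood there at 2702 and 2134 CPM, and Ctsc, which activates granule serine proteases, at 1355 and 1136 CPM. Ctsl followed another pattern, with its highest brain level in fibroblasts at 1036 and 1037 CPM, above 723 and 820 CPM in microglia. Fibroblasts of the intestine held 854 and 592 CPM of Ctsl, and 20 untreated plasmacytoid dendritic cells held 1636 CPM.

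Of the glycosidases, Neu1 (the lysosomal sialidase) was an exception to the macrophage pattern. Its highest intestinal level was in absorptive epithelium, at 181 CPM untreated and 148 CPM with NPs, and macrophages held 42.0 and 84.0 CPM. In the brain it was highest in neutrophils, at 173 and 123 CPM. Gla (alpha-galactosidase A) was low in microglia, with 8.97 and 9.38 CPM, and highest in brain neutrophils, with 136 and 30.6 CPM. Man2b1, the lysosomal alpha-mannosidase, was highest in microglia at 677 and 922 CPM, and Hexa and Gusb were more than 5-fold higher in microglia than in other brain cells in both libraries.

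Lipid handling genes were spread over more classes. Psap, the precursor of the saposins, was highest in brain monocytes or dendritic cells at 3205 and 2572 CPM and stayed at 1793 and 1902 CPM in microglia. Ppt1, a palmitoyl-protein thioesterase, reached 1674 CPM in the 24 conventional dendritic cells of the intestinal NPs library, against 191 CPM in macrophages there. Npc1, the membrane partner of Npc2 in cholesterol export, was highest in oligodendrocytes, at 326 and 309 CPM, with microglia next at 187 and 203 CPM.

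Membrane proteins divided between macrophages and other cells. Cd68, the classical macrophage marker of this list, was 87.7-fold and 115-fold higher in intestinal macrophages than in other cells and 14.9-fold and 12.4-fold higher in microglia. Cd63, a tetraspanin of late endosomes and secretory granules, was highest in untreated mast cells or basophils at 2181 CPM, with intervals that did not overlap those of the next class. In the brain Cd63 was lower in microglia, at 304 and 336 CPM, than in all other cells, at 706 and 685 CPM. Lamp1 was highest in oligodendrocytes at 1410 and 1416 CPM, with microglia at 785 and 904 CPM.

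Of the 5 proton pump genes detected in both microglia libraries, 4 were highest in other brain classes. Atp6v0c and Atp6v1a reached 2013 and 599 CPM in 27 untreated neurons, against 489 and 64.7 CPM in microglia, and the choroid plexus epithelium followed with 807 and 368 CPM untreated. Tcirg1, the pump's a3 subunit, was the exception, with 188 and 198 CPM in microglia and 30.3 and 38.6 CPM in all other brain cells. Atp6v0d2, the d2 subunit known from osteoclasts and some macrophages, gave 1 UMI in untreated and 0 in NPs microglia and 0 in intestinal macrophages. Tfeb was low throughout, with 37.1 and 33.3 CPM in microglia, 42.0 CPM from 3 UMIs in untreated and 29.9 CPM in NPs intestinal macrophages, and its highest brain level was in endothelial cells untreated, at 50.4 CPM, and in monocytes or dendritic cells with NPs, at 53.9 CPM. The intervals of those leading classes overlapped those of the next class.

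**Figure D2:**
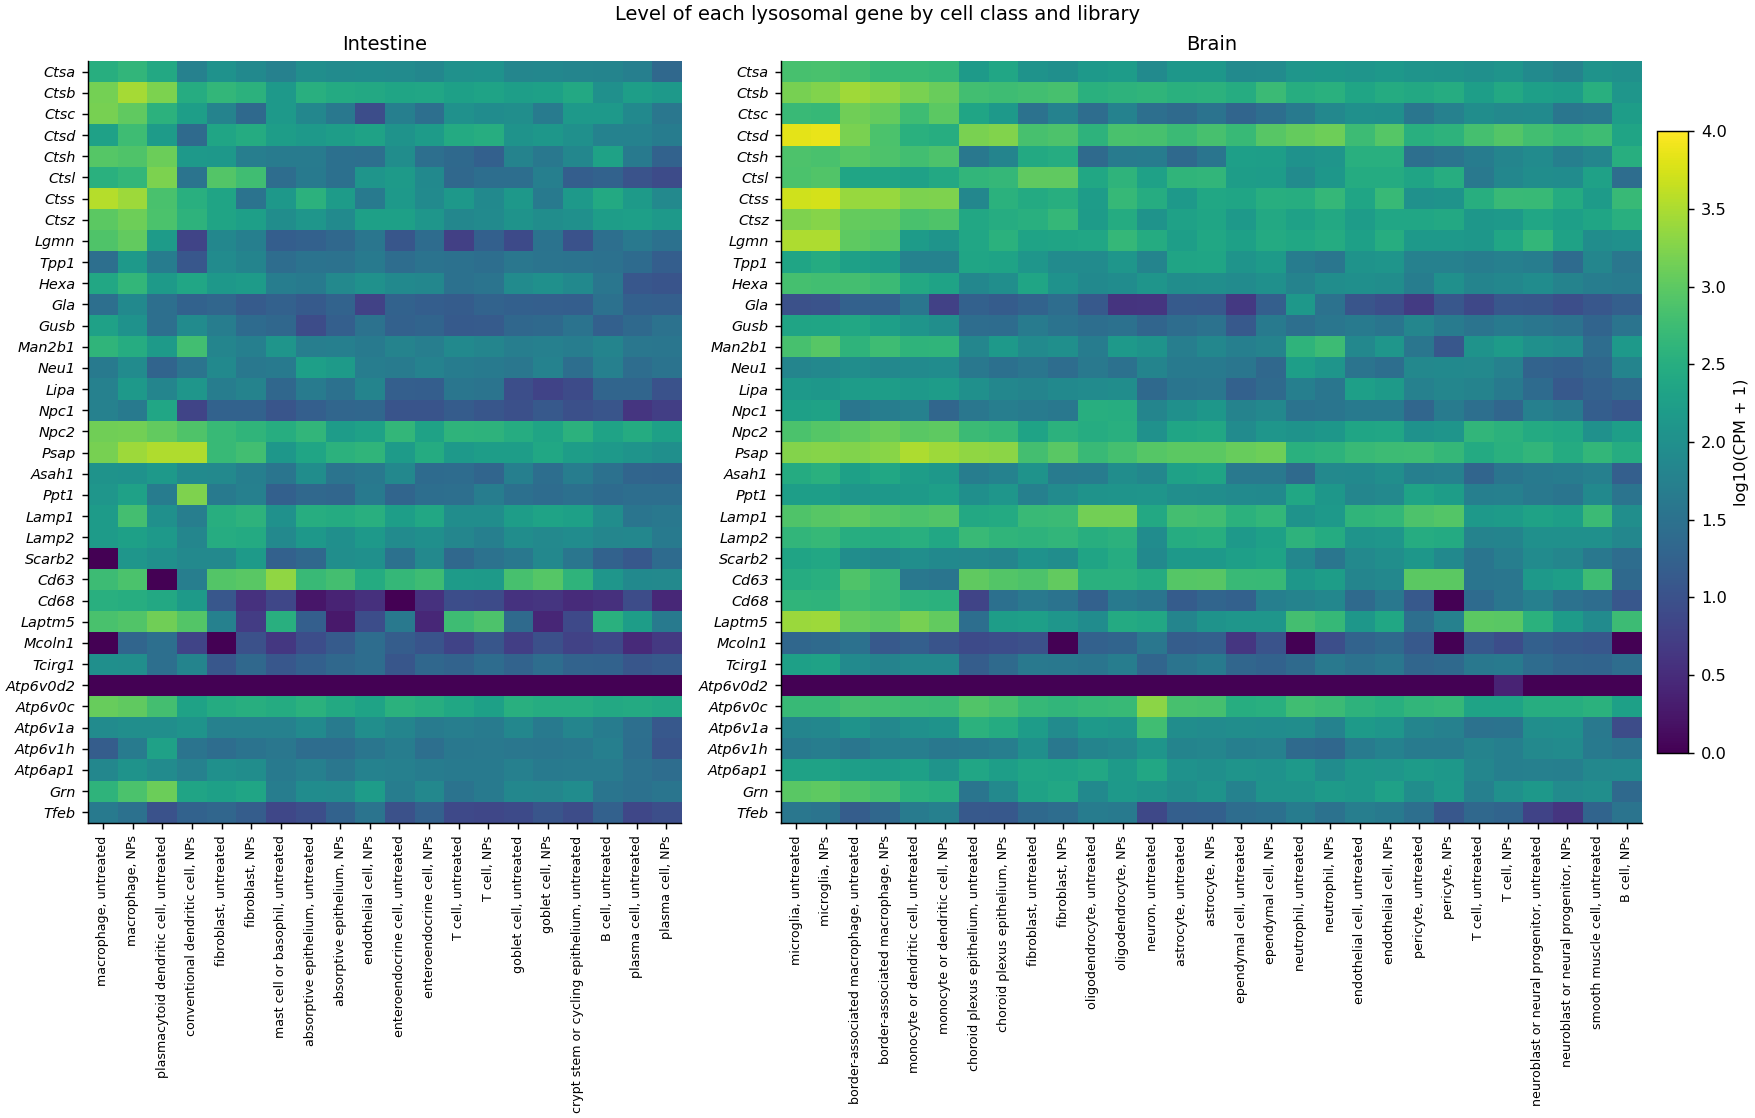
Level of each member (rows, grouped by role) in each cell class and library (columns), as log10(CPM + 1), with intestine at left and brain at right and classes ordered by the summed share. Ctss, Cd68 and Lgmn are bright in the macrophage and microglia columns, Cd63 in mast cells, Lamp1 in oligodendrocytes and Atp6v0c in neurons, while Atp6v0d2 is at or near 0 in all columns.

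The class with the highest level was the same in both libraries for 22 of the 36 members in the brain and for 13 of 36 in the intestine. Microglia were that class for 13 members untreated, which include Atp6v0d2 from 1 UMI, and 15 with NPs, and border-associated macrophages for 6 in each. Intestinal macrophages were highest for 14 and 23 members. How many of all genes were highest in each class is not given here, so the counts only describe the members. The classes compared differed between the intestinal libraries, with 11 classes untreated and 9 with NPs.

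In microglia no member differed by 1.5-fold between the NPs and the untreated library. Of 35 measured members 0 were higher and 0 were lower at that threshold, while 5.08% of all genes measured were higher and 7.37% lower. The ratios ran from 0.880 to 1.36 with a median log2 of 0.10 against 0.02 over all genes, and 27 members lay above 1 and 8 below. Of the 35 intervals, which cover counting error only, 30 excluded a ratio of 1. The shares of all genes above 1 and with such intervals are not given here, so both counts only describe the members.

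The largest ratio belonged to Man2b1, with 677 CPM untreated and 922 CPM with NPs (1.36-fold, 95% exact interval 1.34 to 1.39). Tpp1, a tripeptidyl peptidase, followed with 223 and 290 CPM (1.30, 1.26 to 1.34), then the acid ceramidase gene Asah1 at 1.19 and the cholesterol carrier Npc2 at 1.18. Ratios of 1.13 to 1.15 were found for Lamp1, Scarb2, Mcoln1, Ctsb, Ctsl and Atp6v1h.

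At the other end Lipa, the lysosomal acid lipase, had 147 and 129 CPM (ratio 0.880, 0.843 to 0.919). Tfeb had 37.1 and 33.3 CPM (0.898, 0.824 to 0.978). The ratio was 0.920 for Ctsh, 0.938 for Hexa, 0.939 for Ctsc, 0.949 for Cd68 and 0.971 for Lgmn. Ppt1 at 0.999, Atp6ap1 at 1.01 and Atp6v0c at 1.02 were the remaining members of the 10 smallest ratios. The leading cluster differed between the 2 libraries: that of untreated microglia held 2214 of the 5321 cells and that of NPs microglia 2872 of the 6549. How the other cells of each library spread over the clusters is not given here.

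The further lysosomal lists in microglia held calls in both directions, where 5.08% of all genes were higher and 7.37% lower. Of 14 further V-ATPase subunits 0 of 14 measured passed 1.5-fold in either direction, of 19 further membrane proteins 0 of 18, and of 13 genes of TFEB-family factors and nutrient signalling 0 of 12, where Fnip1 had the largest ratio at 1.42. Among 19 further glycosidases and sulfatases, all measured, 1 was higher, Arsb, the sulfatase for dermatan sulfate, with 537 and 933 CPM (1.74, 1.70 to 1.77). Among 12 further proteases and inhibitors 1 of 10 was higher and 1 lower: Ctse had 0.214 and 9.14 CPM, from 6 and 305 UMIs (42.8, 19.4 to 118), and Dpp7 had 37.7 and 23.8 CPM. Ctse, the aspartic protease cathepsin E, was also higher with NPs in brain T cells at 12.8 and 46.2 CPM and in neutrophils at 28.1 and 87.8 CPM. Of 9 further lipid genes, all measured, 1 was higher. Of 10 sorting genes 1 was lower, Igf2r, at 1.14 and 0.630 CPM.

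Intestinal macrophages rested on 14 untreated cells with 71420 UMIs, against 319 cells with 1536135 UMIs from the NPs library. Of 29 measured members 14 were at least 1.5-fold higher with NPs and 0 were lower, while 45.2% of all genes measured were higher and 5.53% lower. The members' median log2 ratio was 0.47 against 0.52 over all genes, so their count of higher genes was near that of the whole transcriptome. With so few untreated UMIs a gene was mostly measured where the NPs library was higher, and the 7 members without a comparison were Gusb, Npc1, Asah1, Mcoln1, Tcirg1, Atp6v0d2 and Tfeb.

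Ctsb, Psap and Lamp1 were among the members with higher values. Ctsb had 1442 CPM untreated and 2879 CPM with NPs (2.00-fold, 1.64 to 2.45), and Psap had 1526 and 2605 CPM (1.71, 1.41 to 2.08). Lamp1 had 154 CPM from 11 UMIs and 631 CPM (4.10, 2.28 to 8.24). The intervals of these 3 lay above 1.

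Ctsd at 2.93 (1.74 to 5.38), Grn at 1.89 (1.30 to 2.86), Tpp1 at 5.09 (1.39 to 42.3) and Hexa at 1.75 (1.10 to 2.96) were also higher with intervals above 1. By the mean over cells the log2 ratio of Hexa turned to -0.071 and that of Atp6v1h to -0.73. Scarb2, a lysosomal membrane protein, had 0 UMIs untreated and 126 CPM with NPs, which is at least 3.01-fold higher with 3 UMIs in place of 0. The intervals of Atp6v1h at 3.25 (1 untreated UMI), Gla at 2.81, Lipa at 2.58 and Neu1 at 2.00 included 1, as did those of Atp6ap1 at 1.58 and Ppt1 at 1.51.

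The smallest ratios were those of the cysteine proteases Ctsc and Ctss. Ctsc had 1512 and 1055 CPM (0.698, 0.574 to 0.856), and Ctss had 3584 and 2629 CPM (0.734, 0.646 to 0.836), both short of the 1.5-fold threshold with intervals below 1. Man2b1 at 0.749, Atp6v0c at 0.880, Ctsh at 0.899, Cd68 at 0.938, Npc2 at 1.03, Atp6v1a at 1.10, Laptm5 at 1.18 and Lamp2 at 1.23 had intervals that included 1. Of the proteases 3 of 10 were higher and 0 lower at the threshold, and of the glycosidases 3 of 4 measured were higher. Over all genes measured 45.2% were higher and 5.53% lower. The glycosidase left unmeasured, Gusb, stood at 196 CPM untreated and 107 CPM with NPs. Genes entered these counts mostly where the NPs library was higher, so the counts by role say little about the members.

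Over the whole macrophage or monocyte class of the first clustering, with 112 untreated and 357 NPs cells, 19 of 35 measured members were higher and 1 was lower, where 37.5% and 13.3% of all genes were. The median log2 ratio was 0.69 against 0.34 over all genes. Lgmn was 3.04-fold higher (2.57 to 3.61), Ctsb 3.04-fold (2.75 to 3.38) and Cd63 2.97-fold (2.43 to 3.66), and Ppt1 was lower, at 551 and 340 CPM (0.616, 0.531 to 0.715). The 9 macrophage markers summed to 2627 CPM untreated and 15060 CPM with NPs in this class, and 8 T cell markers to 343 and 16.1 CPM, so the markers moved with the ratios, and their part in them was not tested. Ctss had 1663 and 2378 CPM in this class, the opposite direction to that in the macrophages, and Ctsc 844 and 962 CPM.

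The further lysosomal lists in the 14 and 319 macrophages are to be read against the 45.2% of all genes that were higher and 5.53% that were lower. Of 14 V-ATPase subunits 1 of 9 measured was higher, Atp6v1g1 at 1.64 (0.931 to 3.20), and of 12 proteases and inhibitors 2 of 4 were higher and 1 lower, Cst3 (cystatin C) with 2590 and 4076 CPM and Cstb (cystatin B) with 616 and 283 CPM. Of 9 lipid genes 4 of 5 were higher and 1 lower, the latter Gm2a, the GM2 activator, at 378 and 182 CPM, and Pld4 was higher at 224 and 393 CPM. Of 19 glycosidases and sulfatases 5 of 11 were higher, of 19 membrane proteins 3 of 8, of 10 sorting genes 2 of 6 and of 13 genes of TFEB-family factors and nutrient signalling 2 of 4. Sidt2, Gga1 and Rragc, the largest ratios of the last 3 lists, each rested on 1 untreated UMI.

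**Figure D3:**
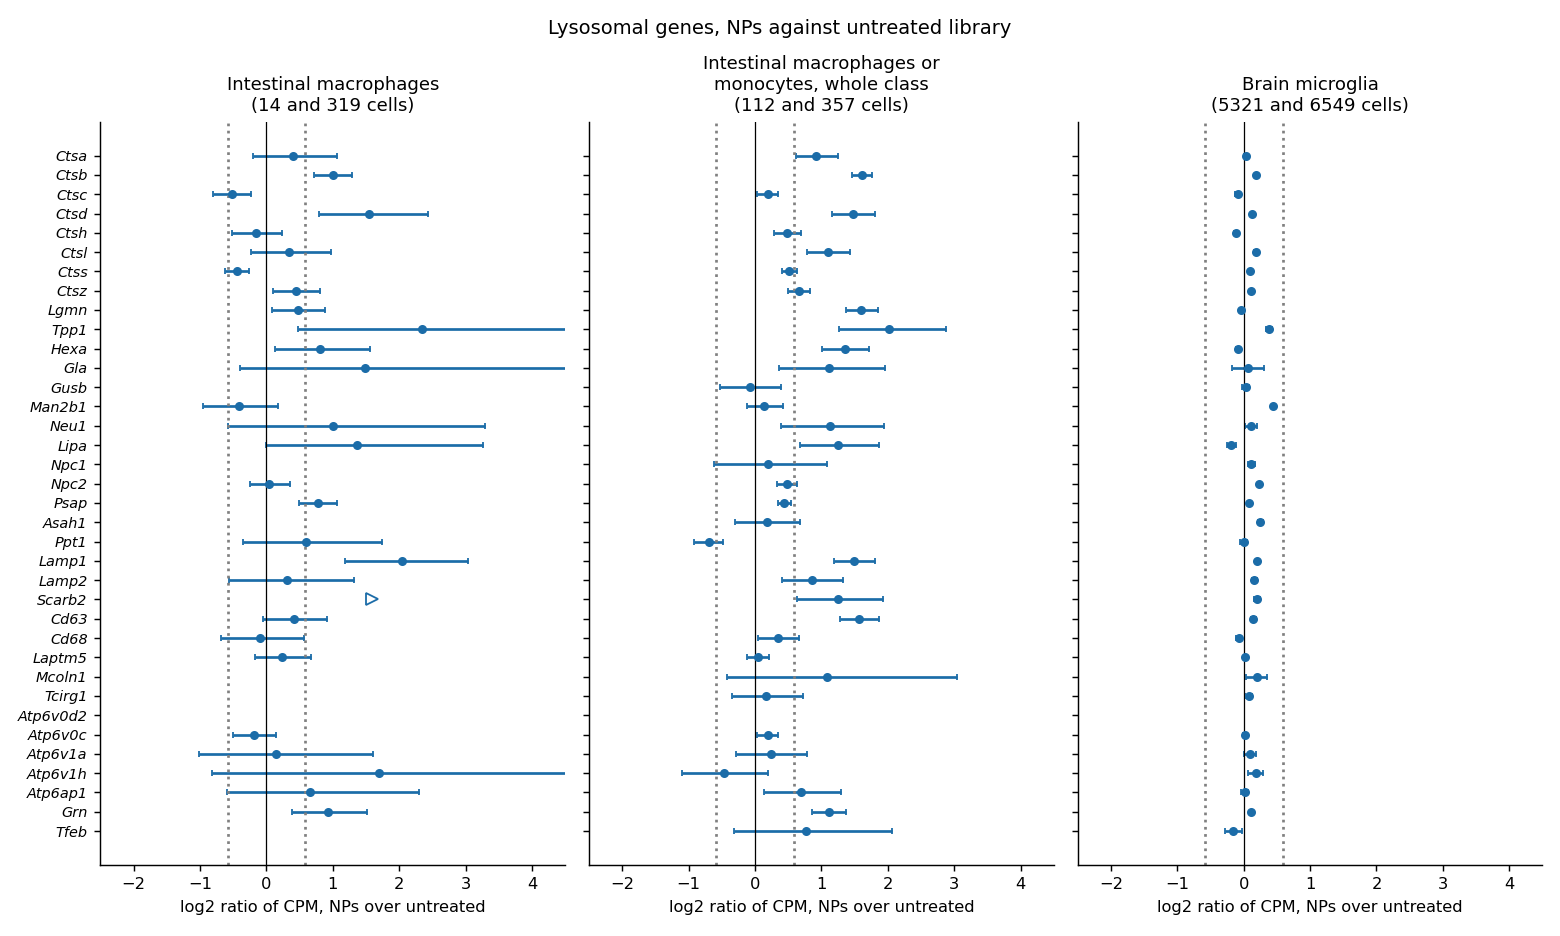
log2 ratio of CPM, NPs over untreated (x axis), of each measured member (y axis) in intestinal macrophages, in the whole macrophage or monocyte class and in microglia, with 95% exact intervals, dotted lines at 1.5-fold and an open triangle for a lower bound; the intervals of Tpp1, Gla and Atp6v1h in intestinal macrophages run past the axis. Microglial ratios stay between 0.880 and 1.36, while those of intestinal macrophages run from 0.698 to 5.09 with wide intervals.

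Within microglia, a sub-cluster like disease-associated microglia had 11 members higher and 1 lower than the remaining microglia in both libraries. It was named from markers such as Apoe, Spp1, Itgax, Clec7a and Lpl, none of them a member, and clustered without the members, so its values are a description of these cells and no test. It held 104 untreated and 110 NPs cells (1.95% and 1.68% of microglia), and the members gave 4.62% and 4.38% of its UMIs against 3.34% and 3.57% in the remaining microglia. At least 1.5-fold higher were 13 of 35 members untreated and 11 of 35 with NPs, against 7.98% and 9.86% of all genes, and lower were 1 and 2 members, against 33.6% and 39.2%. The clustering joined both libraries. With each library clustered on its own, the sub-cluster had 94 untreated cells and the NPs library gave no value for it.

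The members higher in both libraries were Ctsb, Ctsz, Gla, Gusb, Neu1, Lipa, Npc2, Cd63, Cd68, Atp6v0c and Atp6v1a. Cd63 had 1661 CPM there and 261 CPM in remaining microglia untreated (6.36-fold), and 1632 against 298 CPM with NPs (5.49-fold). Gla had 54.1 against 5.51 CPM untreated (9.83-fold, 6.83 to 13.9) and 52.0 against 6.09 CPM with NPs (8.55-fold, 5.94 to 12.1). Ctsb stood at 4100 against 1390 CPM (2.95-fold) and 3743 against 1619 CPM (2.31-fold), and Atp6v0c at 1411 against 449 CPM (3.14-fold) and 1579 against 455 CPM (3.47-fold).

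Other members of the same roles did not follow. Ctss was 0.985 and 0.933 of its level in remaining microglia, Lgmn 0.805 and 0.690, Laptm5 0.733 and 0.680, and Tfeb 0.909 and 1.22. Npc1 was lower in both, at 133 against 208 CPM and 131 against 234 CPM (0.638 and 0.562). Ctsd and Psap passed the threshold in the untreated library, Ctsd at 1.56, and stood at 1.30 and 1.27 with NPs, and Scarb2 was lower with NPs at 0.626 and at 0.807 untreated.

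The further lists differed in direction, where 7.98% and 9.86% of all genes were higher and 33.6% and 39.2% lower. Of 14 V-ATPase subunits 4 were higher and 2 lower in this sub-cluster untreated and 7 and 2 with NPs, with Atp6v1d at 1.80 and 2.25 and Atp6v1b2 at 1.96 and 1.56. Of the further membrane proteins 1 of 15 was higher and 5 were lower untreated, and 2 and 7 of 16 with NPs. Of 9 further lipid genes 2 were higher and 2 lower untreated, and 2 and 4 with NPs. Cstb, an inhibitor of cysteine cathepsins, was 9.37-fold higher untreated and also higher with NPs. The sorting receptor gene Sort1 was lower, at 0.555 and 0.388, and Gnptab, which makes the mannose 6-phosphate signal, was higher, at 2.79 and 3.50. Cst7 was 39.7-fold and 15.5-fold higher, but served as a marker in naming these cells. Median depth was 8112 and 6386 UMIs per cell against 4654 and 4382 in remaining microglia.

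**Figure D4:**
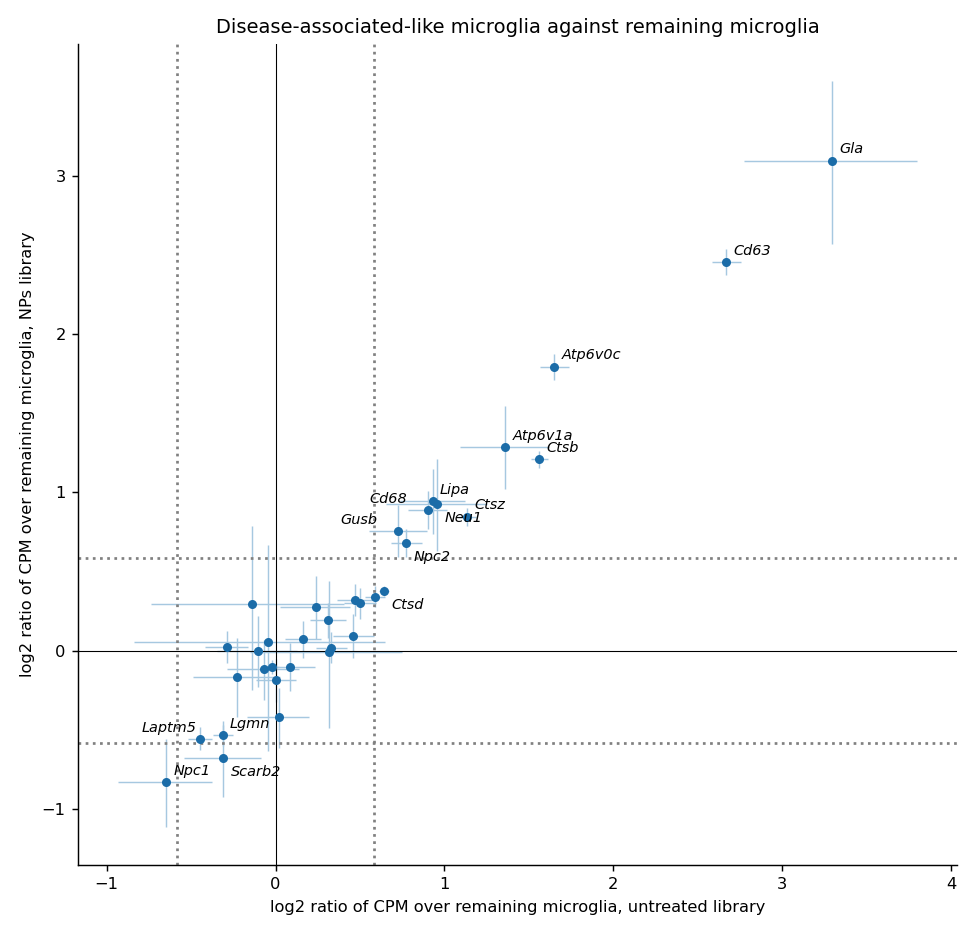
log2 ratio of CPM in the sub-cluster like disease-associated microglia over remaining microglia for each member, in the untreated library (x axis) and the NPs library (y axis), with 95% exact intervals and dotted lines at 1.5-fold. Gla, Cd63, Atp6v0c, Atp6v1a and Ctsb lie furthest to the upper right and Npc1 to the lower left.

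The other microglial states carried fewer differences. Interferon-like microglia, 50 and 256 cells, had 1 member higher and 1 lower of 32 untreated (3.74% and 30.4% of all genes) and 0 and 1 of 34 with NPs (4.49% and 18.2%), with no member in common. Microglia with chemokine and immediate early genes, 810 and 1266 cells, had Gla higher, at 2.79 and 2.33, and Npc1 (0.559 and 0.576) and Scarb2 (0.620 and 0.642) lower in both libraries, where 3.99% and 3.93% of all genes were higher and 22.5% and 23.4% lower. Within the remaining microglia alone, 0 of 35 members differed by 1.5-fold between libraries. Man2b1 was higher with NPs in the disease-associated-like (1.63-fold), the interferon-like (1.56-fold) and the chemokine and immediate early microglia (1.69-fold). Gusb was higher in interferon-like microglia (1.60-fold, 1.14 to 2.31). No other member passed 1.5-fold between libraries in these states. The share of all genes called between libraries within each state is not given here.

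In the intestine, Scarb2 was higher and Ctss lower with NPs across most other classes. Scarb2 passed 1.5-fold in 5 of 6 classes compared, from 21.8 to 94.8 CPM in absorptive epithelium (4.35-fold, 4.05 to 4.68), 30.3 to 74.7 CPM in enteroendocrine cells, 11.7 to 24.5 CPM in plasma cells, 76.6 to 148 CPM in fibroblasts and 38.8 to 71.6 CPM in goblet cells. In T cells its ratio was 1.43 (0.922 to 2.13). Of all genes measured 49.1% were also higher in absorptive epithelium, 31.8% in enteroendocrine cells and 9.83% in plasma cells. In fibroblasts 40.5% were and in goblet cells 29.6%. Ctss was lower in all 6, by 1.77-fold in enteroendocrine cells up to 6.61-fold in fibroblasts, and Ctsc, Ctsh and Laptm5 were lower in 5 of 6, T cells being the exception. Lower were from 7.01% of all genes in fibroblasts to 31.2% in plasma cells. The share of all genes called in as many classes is not given here.

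Laptm5, a membrane protein of blood cells, showed the widest ratios. It had 15.1 and 0.876 CPM in absorptive epithelium, 23.3 and 1.70 CPM in goblet cells, 40.1 and 1.82 CPM in enteroendocrine cells and 56.7 and 4.08 CPM in fibroblasts, 13.7-fold to 22.0-fold lower with NPs. In T cells, where it is made, it had 577 and 769.7 CPM. The markers of T and B cells moved with it: in absorptive epithelium the 8 T cell markers summed to 64.3 and 4.95 CPM and the 8 B cell markers to 73.7 and 0.566 CPM, and in goblet cells to 122 and 7.94 CPM and to 93.9 and 2.06 CPM. In fibroblasts the B cell markers summed to 292 CPM, all 8 detected, and to 0 CPM with NPs. The part of lymphocyte RNA in these ratios was not tested.

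**Figure D5:**
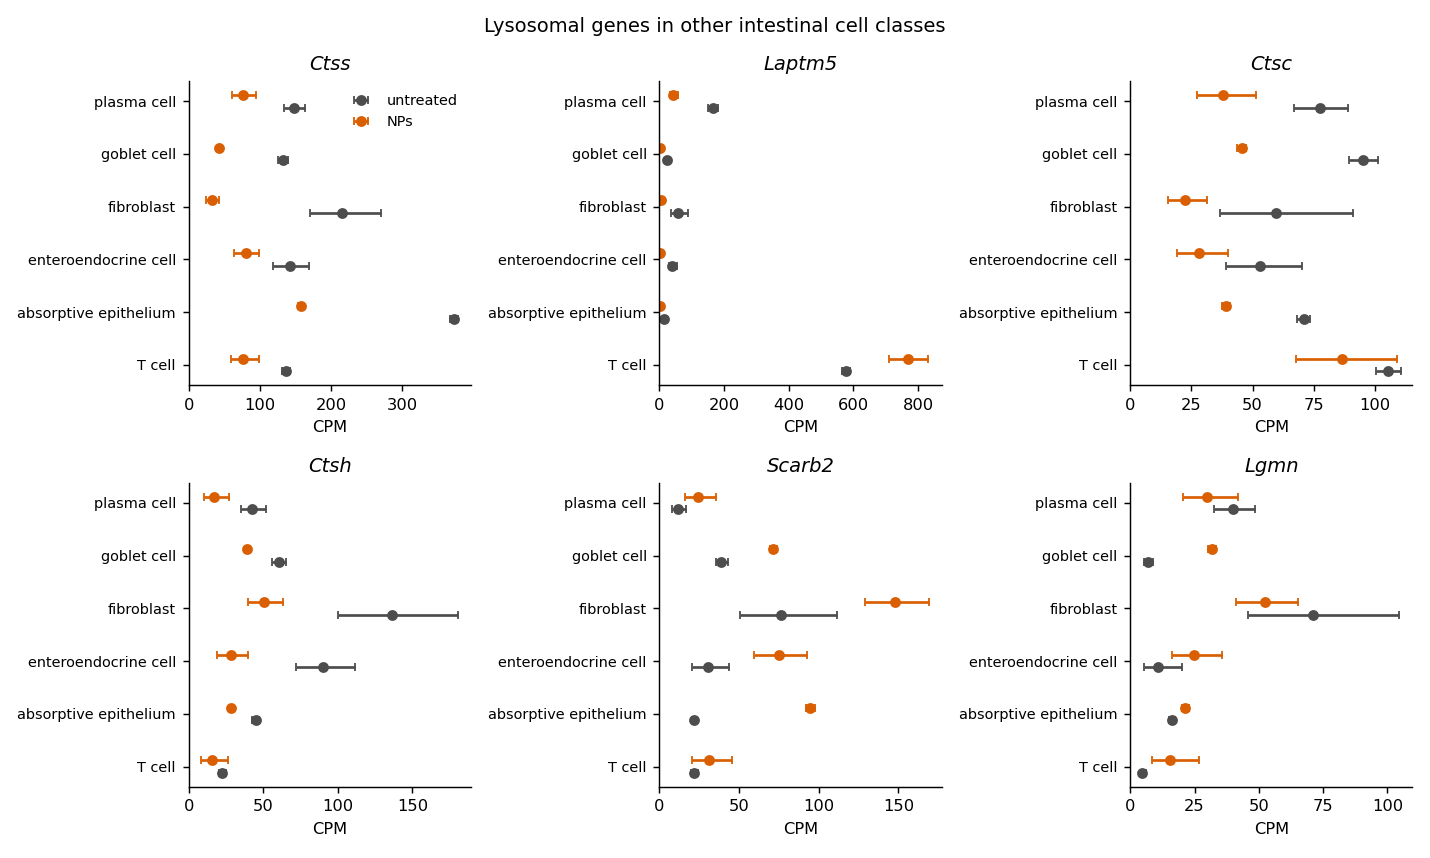
Level in CPM (x axis) of 6 members in the other intestinal cell classes (y axis), untreated in grey and NPs in orange, with 95% exact Poisson intervals. Ctss lies lower with NPs in all 6 classes, Scarb2 lies higher, and Laptm5 is near 0 with NPs in all classes but T and plasma cells.

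Absorptive epithelium had 7 of 35 members higher and 8 lower, where 49.1% and 13.3% of all genes were, so higher members were fewer than genes at large. After Scarb2 the largest ratios were 2.06 for Tfeb (8.17 and 16.8 CPM) and Gusb (7.39 and 15.2 CPM), and the smallest after Laptm5 were 0.371 for Asah1 (90.1 and 33.4 CPM) and 0.381 for Npc2 (424 and 162 CPM). Mcoln1 had 7.97 and 13.3 CPM. Goblet cells had 5 higher and 7 lower of 35 (29.6% and 8.26%), led by Lgmn at 6.95 and 31.9 CPM (4.58-fold, 3.63 to 5.86), Ctsl at 26.5 and 51.5 CPM and Mcoln1 at 4.45 and 8.44 CPM, with Ctss at 133 and 42.9 CPM and Ctsc at 95.1 and 45.5 CPM. The 9 macrophage markers summed to 10.2 and 38.9 CPM in goblet cells and to 20.6 and 37.4 CPM in enteroendocrine cells. They summed to 5.84 and 15.4 CPM in plasma cells and to 7.86 and 34.8 CPM in T cells. In absorptive epithelium they gave 52.3 and 50.0 CPM and in fibroblasts 59.6 and 41.4 CPM. The part of macrophage RNA in the ratios of these classes, Lgmn included, was not tested. The untreated and NPs epithelium differed in Hox genes as described, which cannot be told apart from treatment.

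Enteroendocrine cells had 4 higher and 8 lower of 29 (31.8% and 9.9%), with Lgmn at 2.27, Tcirg1 at 1.93 and Psap at 1.82 beside Scarb2, and Ctsh at 0.314 and Asah1 at 0.326. Fibroblasts had 2 higher and 5 lower of 29 (40.5% and 7.01%), with Tcirg1 at 1.92 and Ppt1 at 1.28 after Scarb2, Ctss at 216 and 32.6 CPM and Ctsh at 136 and 50.3 CPM. Plasma cells had 1 higher and 11 lower of 30 (9.83% and 31.2%), with Gusb at 1.39 and Neu1 at 1.25 after Scarb2, and Laptm5 at 0.262, Atp6v1h at 0.371 and Ctsh at 0.402. T cells had 1 of each of 31 (13.4% and 21.8%): Ppt1 was higher at 28.1 and 48.0 CPM and Ctss lower at 137 and 76.8 CPM, with Tcirg1 at 1.42, Ctsh at 0.697 and Asah1 at 0.776 short of the threshold.

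In brain endothelial cells and astrocytes, the members that differed were mainly the microglial ones, and microglial markers moved with them. Endothelial cells had 6 of 35 members higher and 0 lower (5.04% and 7.72% of all genes), with Ctss at 223 and 488 CPM (2.19-fold), Laptm5 at 129 and 245 CPM and Man2b1 at 72.4 and 125 CPM, and with Gla at 0.759, Gusb at 0.797 and Neu1 at 0.806 at the other end. Astrocytes had 3 of 35 higher and 0 lower (6.93% and 5.26%), Laptm5 at 64.1 and 114 CPM, Ctss at 138 and 243 CPM and Ctsh at 22.5 and 34.3 CPM, and their smallest ratios were 0.908 for Atp6ap1, 0.909 for Atp6v1a and 0.951 for Lamp1. The 10 microglial markers, all detected, summed to 1374 and 2447 CPM in endothelial cells and to 803 and 1397 CPM in astrocytes.

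Set against the level in microglia of the same library, Ctss in astrocytes was at 2.64% untreated and 4.34% with NPs and Laptm5 at 2.52% and 4.40%, beside 2.90% and 5.05% for the microglial markers. In endothelial cells Ctss was at 4.26% and 8.73%, beside 4.97% and 8.84%. By contrast Psap stood at 54.7% and 50.9% of its microglial level in astrocytes, Lamp1 at 80.2% and 66.3%, and Cd63 at 286% and 268%. Astrocytic Ctss and Laptm5 stood slightly below the share of the microglial markers, and Psap, Lamp1 and Cd63 far above it. In endothelial cells Laptm5 and Man2b1 stood above the share of the markers in both libraries. Their levels in microglia were 2545 and 2592 CPM for Laptm5 and 677 and 922 CPM for Man2b1. Ctsd, Lgmn and Cd68, also higher with NPs in endothelial cells, are not set against the markers here. The part of microglial RNA in these values was not tested.

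Brain T cells had 7 of 33 higher and 0 lower (18.3% and 4.21%), with Lgmn at 128 and 234 CPM, Grn at 54.9 and 99.2 CPM and Asah1 at 19.2 and 34.4 CPM, and with Lipa at 0.704, Npc1 at 0.717 and Neu1 at 0.749. The microglial markers summed there to 1307 and 1933 CPM. Neutrophils, 74 and 118 cells, had 5 higher and 3 lower of 26 (17.4% and 14.6%), among them Asah1 at 23.4 and 75.6 CPM (3.23-fold, 1.27 to 10.5), Tcirg1 and Ctsc at 1.75, Gla at 136 and 30.6 CPM (4.43-fold lower), Ppt1 at 239 and 129 CPM and Atp6ap1 at 0.626. Tfeb and Mcoln1 were within 1.5-fold in the astrocytes and endothelial cells, where both were measured, with ratios of 1.04 and 0.847 for Tfeb and 1.06 and 1.27 for Mcoln1.

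Neuroblasts or neural progenitors had 0 of 34 higher and 10 lower (3.79% and 10.1%), with Laptm5 at 354 and 156 CPM, Lgmn at 445 and 201 CPM and Ctsc at a ratio of 0.459, and with Cd63 at 1.19, Atp6v1h at 1.13 and Asah1 at 1.06 as the largest ratios. The microglial markers summed to 2953 and 1560 CPM in this class, so they were lower with NPs as well. When each library was clustered on its own, the log2 ratio of Laptm5 turned from -1.18 to 0.90 and that of Lgmn from -1.15 to 0.79, so the direction depended on which cells were given this name.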

How the data were processed

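Single-cell 3' libraries (10x Genomics v3) of 2 untreated and 2 NPs samples were used as the deposited UMI counts, raw and per gene and barcode, which the authors made with Cell Ranger 5.0.1 on GRCm38, per the submitters' processing notes. The members and gene lists were chosen with earlier results of these data known. A barcode needed 500 UMIs from 200 genes, with mitochondrial UMIs no higher than 20%. Doublets were removed with Scrublet; its own threshold did not work in the intestine, marking 0.0354% and 0% of cells, and a score of 0.25 was used there. Cells were clustered per tissue with scanpy 1.11.5 and leidenalg 0.10.2 (2000 variable genes without the members, 30 components, 15 neighbours, resolution 1), and clusters were named where at least 3 markers were 2-fold above the median cluster and in 20% of cells. Intestinal macrophages came from a second clustering of the myeloid clusters. Some choices followed a first look at the data: clustering unnamed clusters a second time, the 20 cells needed to rank a class, the use of unnamed sub-clusters as remaining microglia and the rule that an uninformative bound is not measured. Intestinal macrophages were exempt from the 20 cells. UMIs were summed per class and library and divided by their total (CPM). Intervals are exact (Poisson for levels, binomial for shares and ratios, scipy 1.17.1), at 95%, for counting error only, and 3 UMIs replaced 0. The ratio between libraries was called at 1.5-fold and that against other cells at 2-fold, with 20 UMIs in the higher side and, outside macrophages, 50 cells in each library. The scripts were tested on simulated data. The text names the 10 members at each end of the ratios in macrophages and microglia, 3 at each end elsewhere, the highest class of members, Tfeb, Mcoln1 and Atp6v0d2, and the largest changes of each further list. Results of some further genes are not reported here. Members named for another pattern were chosen after their values were seen. In the annotation Ctsd, Ctsl and Ctss each overlap another gene on the same strand, and UMIs that match both may be lost.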

Additional observations from a re-analysis of the deposited data

Results flagged for a closer look

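The values here are those of members that passed 1.5-fold in opposite directions either in the same class of both tissues or in intestinal macrophages and another intestinal class. The differences between classes were not tested, since each ratio compares 1 library with 1 library. Ctss had a log2 ratio of -0.83 in intestinal and 0.69 in brain T cells. Against intestinal macrophages, Atp6v1h was at 1.70 there, from 1 untreated UMI, and at -0.79 in enteroendocrine and -1.43 in plasma cells. Neu1 was at 1.00 in macrophages, from 3 untreated UMIs, and at -1.04 in fibroblasts. Lipa was at 1.37 in macrophages, from 4 untreated UMIs, and at -0.61 in goblet and -1.07 in plasma cells. Tpp1 was at 2.35 in macrophages, from 2 untreated UMIs, and at -0.71 in plasma cells. Among the other classes, further members were called both higher and lower. In the intestine Ctsl and Neu1 were higher in goblet cells, and Ctsl was lower in enteroendocrine cells and Neu1 in fibroblasts. In the brain Ctsc, Ctsh, Ctss, Lgmn, Cd68, Laptm5 and Grn were lower in neuroblasts and higher in at least 1 other class, and Gla was higher in T cells and lower in neutrophils.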

How the results depend on the processing

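Values were recomputed under other filters, clusterings and scalings; the alternatives for the disease-associated sub-cluster and the limit to remaining microglia were chosen after seeing the data. Of 281 alternative counts and medians, 246 stayed within the set margins and 35 moved. A reversal was labelled only for a median of at least 1.5-fold, which none reached, so none could be labelled so. The changes of sign among the medians below therefore count as moved. In intestinal macrophages the 14 higher members became 7, the 0 lower became 6 and the median log2 ratio of 0.47 became -0.044 when ratios were centred on the median of all genes. The lower count was also 2 with 10% mitochondrial UMIs and with each library clustered on its own, 1 with no mitochondrial limit, with doublets kept and in the whole class, and 3 by the mean over cells. Atp6v1h turned to -0.73 by the mean over cells and -0.47 in the whole class, Hexa to -0.071 by the mean over cells and Ppt1 to -0.70 in the whole class. In microglia the median of 0.10 became 0.081 with cells thinned to 1000 UMIs, 0.074 centred and 0.12 in remaining microglia. In the disease-associated sub-cluster the 2 lower members with NPs became 1 with no mitochondrial limit, a minimum of 1000 UMIs, doublets kept, resolution 0.5, resolution 2 or members among the clustering genes, and the 1 untreated became 3 with 1000 UMIs. The median of absorptive epithelium, -0.11, became -0.029 with no mitochondrial limit, -0.035 with 1000 UMIs, -0.043 at resolution 2, -0.044 with each library on its own, -0.048 with doublets kept, -0.16 at resolution 0.5, 0.00851 by the mean over cells, -0.22 thinned and -0.68 centred. That of goblet cells, 0.05, became -0.16 with no mitochondrial limit, 0.18 thinned and -0.22 centred, that of astrocytes, 0.10, became 0.039 centred, that of plasma cells, -0.32, became -0.88 thinned, and that of intestinal T cells, -0.02, became 0.22 with each library on its own. In neuroblasts that clustering turned the median from -0.33 to 0.47 and Cd68 to 0.74, Ctsc to 0.82, Ctsh to 1.19, Ctss to 0.78, Grn to 0.52, Laptm5 to 0.90, Lgmn to 0.79 and Psap to 0.10. With 10% mitochondrial UMIs, Cd68 turned to 0.13, Ctsh to 0.38, Ctss to 0.19, Grn to 0.13, Laptm5 to 0.22 and Lgmn to 0.26 there. The causes were not tested. Thinning left 9 untreated intestinal macrophages and gave no value for them, nor did 1000 UMIs for intestinal fibroblasts or separate clustering for the disease-associated sub-cluster with NPs. No paired analysis was possible because each group had 1 library. The number of untreated intestinal macrophages, 14 as reported, ran from 13 to 41 over the other filters and clusterings.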
